A study of Mus musculus with 7 samples.

Results

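The genes of post-squalene sterol synthesis were followed in 7 RNA libraries of mouse ovary. They were chosen by name from the steps that turn squalene into cholesterol, and all 9 (Sqle, Lss, Cyp51, Tm7sf2, Msmo1, Nsdhl, Ebp, Sc5d and Dhcr7) were found among the 34866 genes of the table by their Ensembl IDs. The libraries came from knockout mice on the VOFD diet (Abcg5/g8 KO, fertile, 2 libraries), knockout mice on the CD diet (Abcg5/g8 KO, infertile, 3 libraries) and wild type mice on the CD diet (WT, fertile, 2 libraries), all females of 8 to 12 weeks. They are called VOFD knockouts, CD knockouts and CD wild types. Both knockout groups thus carry the knockout of the same gene pair, Abcg5 and Abcg8, whose products export cholesterol and plant sterols from cells. The sources used here do not give the diets' full names, the kind of knockout allele or the strain, and no wild type group on VOFD was analysed here.

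Squalene is made from acetyl-CoA by the mevalonate arm of the pathway. Squalene epoxidase (Sqle) and lanosterol synthase (Lss) close it into the first sterol, and later enzymes strip methyl groups, move a double bond and reduce others until cholesterol remains. The genes are textbook targets of SREBP2, a transcription factor held in the endoplasmic reticulum when cell sterol is plentiful. In the ovary the pathway feeds steroid hormone synthesis, and the product of Cyp51, which the Tm7sf2 enzyme uses up, is known as follicular fluid meiosis-activating sterol.

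The promoters of 3 genes that were low in infertile ovaries (Msmo1, Cyp51 and Sc5d) and of 2 that were level across the groups (Tm7sf2 and Ebp) are shown first, so that the sequences can be set beside the values. Each runs from 250 bases before to 50 bases after the RefSeq transcript start on GRCm38.p6, written 5′ to 3′ on the gene's strand. Capitals mark the CCAAT box, the letters bound by the factor NF-Y, read on either strand (CCAAT or ATTGG).
Msmo1, chr8:64733529-64733828, minus strand: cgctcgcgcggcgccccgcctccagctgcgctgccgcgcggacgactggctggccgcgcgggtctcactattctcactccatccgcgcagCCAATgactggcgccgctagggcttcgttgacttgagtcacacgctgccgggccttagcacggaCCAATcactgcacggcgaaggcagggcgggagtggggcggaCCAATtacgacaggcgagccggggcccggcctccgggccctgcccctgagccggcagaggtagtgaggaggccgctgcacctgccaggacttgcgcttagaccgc
Cyp51, chr5:4104648-4104947, minus strand: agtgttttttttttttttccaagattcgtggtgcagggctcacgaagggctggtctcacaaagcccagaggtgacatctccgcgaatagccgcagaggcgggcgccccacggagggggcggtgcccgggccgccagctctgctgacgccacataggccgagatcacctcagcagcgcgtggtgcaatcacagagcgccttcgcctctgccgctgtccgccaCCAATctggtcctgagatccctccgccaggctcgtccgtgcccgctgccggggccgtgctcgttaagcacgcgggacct
Sc5d, chr9:42264251-42264550, minus strand: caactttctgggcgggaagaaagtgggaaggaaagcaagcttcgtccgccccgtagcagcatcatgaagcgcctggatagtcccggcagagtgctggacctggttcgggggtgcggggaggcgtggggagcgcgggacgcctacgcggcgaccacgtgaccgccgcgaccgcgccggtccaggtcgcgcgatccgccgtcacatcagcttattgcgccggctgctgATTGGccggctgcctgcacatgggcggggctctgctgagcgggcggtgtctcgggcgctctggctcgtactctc
Tm7sf2, chr19:6067801-6068100, minus strand: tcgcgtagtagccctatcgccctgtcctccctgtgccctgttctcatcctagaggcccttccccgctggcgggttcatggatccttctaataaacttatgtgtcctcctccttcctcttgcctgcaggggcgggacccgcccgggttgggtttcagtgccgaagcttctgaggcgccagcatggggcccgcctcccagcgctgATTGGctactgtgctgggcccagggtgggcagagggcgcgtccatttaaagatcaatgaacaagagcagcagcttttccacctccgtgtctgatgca
Ebp, chrX:8193463-8193762, minus strand: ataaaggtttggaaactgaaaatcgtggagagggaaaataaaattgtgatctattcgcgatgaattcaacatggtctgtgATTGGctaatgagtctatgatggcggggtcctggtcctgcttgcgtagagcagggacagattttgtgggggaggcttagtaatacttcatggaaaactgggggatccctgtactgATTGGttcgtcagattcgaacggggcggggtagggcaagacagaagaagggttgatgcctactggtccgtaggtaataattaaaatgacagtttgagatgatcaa

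RefSeq windows were matched for 8 of the 9 genes, all but Sqle, and Dhcr7 had 3 starts. All 8 held CCAAT in at least 1 window, and all 8 held the GC box GGGCGG, the letters bound by Sp1, both read on either strand with no overlap between the motifs. Of 32851 promoter windows of the same length, 37.4% held CCAAT and 35.7% held GGGCGG. These shares are per window, whereas a gene with several starts, here Dhcr7, was counted by any of its windows. The sterol regulatory element was searched as TCACNCCAC on either strand, which 1.24% of all windows held. None of the 8 genes held those letters in this window, which says only that the letters are not there. Msmo1 had 3 CCAAT boxes, Ebp had 2, and Cyp51, Sc5d and Tm7sf2 had 1 each, so the level genes and the low genes both carried the motif. The first Dhcr7 start had no CCAAT box and the third had 2.

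**Figure D1:**
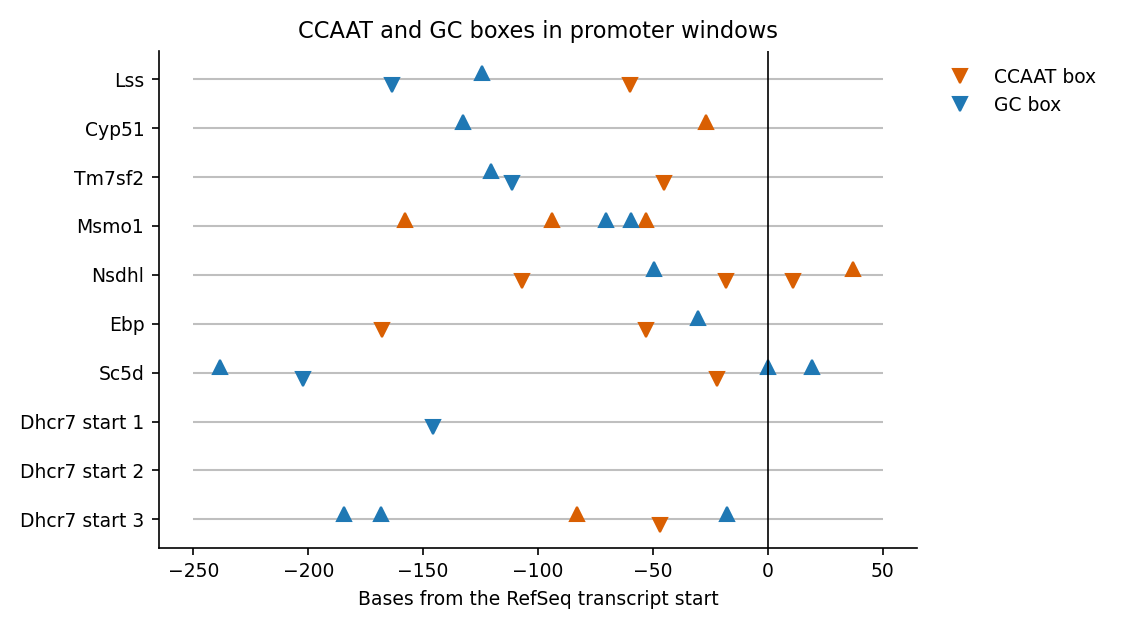
Position of CCAAT boxes (orange) and GC boxes (blue) in the promoter windows of 8 genes, in bases from the transcript start (0). Upward triangles mark the motif on the gene's strand and downward triangles the other strand. Most boxes lie upstream of the start, Msmo1 with 3 CCAAT boxes, and Dhcr7 start 2 has none of either.

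The values were TPM (each transcript's share of the library after division by its length), so levels can be set beside each other between genes. Each library summed to 1000000 TPM, which keeps no sequencing depth, and between 14267 and 14982 genes reached 1 TPM per library. Markers of the labelled tissue were present, such as Inha, a granulosa cell gene, at 879 to 3410 TPM, and the egg coat gene Zp3 at 48.2 to 133 TPM. Since no label says that each library came from its own animal, p-values cover only the spread among the 7 libraries, which may be partly technical. The knocked-out genes were near 0 in every group (Abcg5 at most 0.212 TPM, Abcg8 at most 0.156 TPM), so their levels could not check the labels. In whole ovaries, fewer cells of a type and less RNA per cell cannot be told apart. All folds below are on the log2(TPM + 1) scale, which understates changes of low genes, and a gene is called where the limma adjusted p, by Benjamini and Hochberg (BH) over 15487 tested genes, is under 0.05. All 9 genes passed the filter of 1 TPM in 2 libraries.

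Msmo1, Cyp51, Sc5d and Lss, enzymes of both early and late steps, were lower in all 3 infertile CD knockout ovaries than in all 4 fertile ones, and Tm7sf2 and Ebp stayed close to 1 level in all 7. When the infertile libraries were set against the 4 fertile libraries together (VOFD knockouts and CD wild types), Msmo1 and Cyp51 passed the threshold and fell, and the other 7 did not pass. The fertile group mixes genotype and diet. Of the 9 genes 2 were called lower, and 0.187% of all tested genes were. Groups did not overlap, with the infertile one lower, for 4 of the 9 genes and for 3.76% of all tested genes. An unadjusted p under 0.05 with a lower level was found for 5 of 9, against 3.7% of all genes. The median log2 fold change was -0.64 over the 9 genes and 0.15 over all genes, where it was 0 after median-of-ratios scaling. The members were picked with earlier results of these libraries known, so these counts describe them and are no independent evidence.

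**Figure D2:**
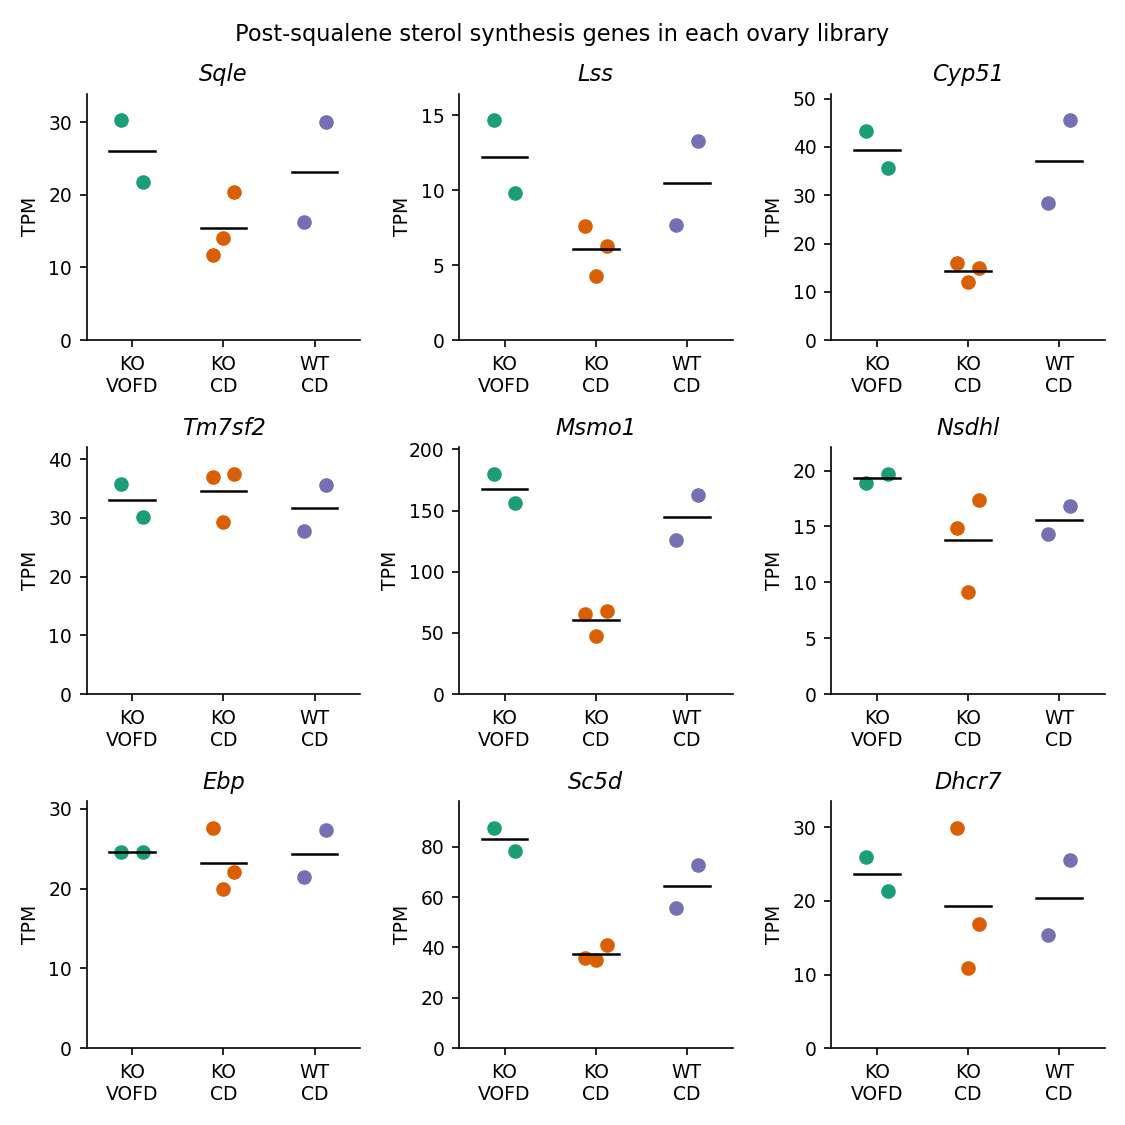
TPM of each of the 9 genes in every library (points) with the group mean (line), by group: VOFD knockouts, CD knockouts and CD wild types. Msmo1, Cyp51, Sc5d and Lss are lower in every CD knockout library than in every other library, while Tm7sf2 and Ebp lie at similar heights in all groups.

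Sqle, the squalene epoxidase that adds oxygen ahead of ring closure, was at 30.3 and 21.8 TPM in VOFD knockouts, at 11.7, 14.0 and 20.4 TPM in CD knockouts, and 16.2 and 30 TPM in CD wild types. CD knockout library 3 lay above CD wild type library 1, so infertile and fertile libraries overlapped (a log2 difference of -0.64, SE 0.26, limma adjusted p = 0.29). Sqle (ENSMUSG00000022351) lies at chr15:59315077-59331192 on the plus strand. Gene positions here are those of GENCODE M21 on GRCm38.

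Lss, which cyclises oxidised squalene to lanosterol, was the least abundant of the 9 in every group. Lss was at 14.7 and 9.79 TPM in VOFD knockouts, at 7.65, 4.31 and 6.28 TPM in CD knockouts, and 7.72 and 13.3 TPM in CD wild types. The groups were parted only narrowly, since the highest infertile and the lowest fertile library nearly met. Its log2 fold change in infertile against fertile ovaries was -0.80 (SE 0.25, limma adjusted p = 0.216). Lss (ENSMUSG00000033105) lies at chr10:76531588-76557138 on the plus strand.

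Cyp51 encodes lanosterol 14α-demethylase, the step that yields the meiosis-activating sterol. Cyp51 was at 43.3 and 35.6 TPM in VOFD knockouts, at 15.9, 12.1 and 15.0 TPM in CD knockouts, and 28.5 and 45.6 TPM in CD wild types. The 3 infertile libraries lay close together, all below the lowest fertile library. Cyp51 averaged 14.3 ± 1.98 TPM in infertile ovaries (SD, n = 3) and 38.3 ± 7.78 TPM in fertile ovaries (n = 4, a log2 difference of -1.34, SE 0.19, limma adjusted p = 0.0274). It was the third most abundant of the 9 in VOFD knockouts, the seventh in CD knockouts and the third in CD wild types. In CD knockouts its mean differed by less than the spread between libraries from those of Sqle (15.4 ± 4.49 TPM) and Nsdhl (13.8 ± 4.23 TPM). The call held in 9 of 16 alternatives. It was lost, among others, without VOFD knockout library 1 (adjusted p = 0.0901) or 2 (0.0684), CD knockout library 2 (0.103) or 3 (0.0572) or CD wild type library 2 (0.0853). It was also lost with no filter (0.139), and over all 16 alternatives the log2 fold change stayed between -1.51 and -1.23 and the adjusted p between 0.0104 and 0.139. Cyp51 (ENSMUSG00000001467) lies at chr5:4081145-4104746 on the minus strand.

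Tm7sf2 encodes a sterol C14-reductase, the step after Cyp51. Tm7sf2 was at 35.8 and 30.2 TPM in VOFD knockouts, at 37.0, 29.3 and 37.5 TPM in CD knockouts, and 27.8 and 35.6 TPM in CD wild types. Its highest library was 1.35 times its lowest, the narrowest range of the 9, and all groups overlapped. The log2 fold change in infertile against fertile ovaries was 0.09 (95% interval -0.25 to 0.44), and it turned to -0.07 after median-of-ratios scaling and to -0.08 after quantile normalisation. Tm7sf2 (ENSMUSG00000024799) lies at chr19:6062821-6068373 on the minus strand.

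Msmo1 encodes the sterol C4-methyl oxidase, which starts the removal of the methyl groups at carbon 4. It was the most abundant of the 9 in every group. Msmo1 was at 180 and 156 TPM in VOFD knockouts, at 65.7, 47.5 and 67.6 TPM in CD knockouts, and 126 and 163 TPM in CD wild types. Every CD knockout library was thus well below every fertile library, and the 2 fertile groups overlapped. Msmo1 averaged 60.3 ± 11.1 TPM in infertile ovaries (SD, n = 3) and 156 ± 22.6 TPM in fertile ovaries (n = 4), which is -1.36 on the log2 scale (SE 0.17, limma adjusted p = 0.019). The call held in 11 of 16 alternatives. It was lost, among others, without VOFD knockout library 1 (adjusted p = 0.0566), CD knockout library 2 (0.0585) or CD wild type library 2 (0.0621) and with no filter on low genes (0.087). Over these alternatives its log2 fold change ranged from -1.53 to -1.20 and its adjusted p from 0.0062 to 0.087. Msmo1 (ENSMUSG00000031604) lies at chr8:64718139-64733792 on the minus strand.

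Nsdhl, the C4 decarboxylase that works with the Msmo1 enzyme, had smaller differences. Nsdhl was at 18.9 and 19.7 TPM in VOFD knockouts, at 14.9, 9.17 and 17.4 TPM in CD knockouts, and 14.3 and 16.8 TPM in CD wild types. Its log2 fold change in infertile against fertile ovaries was -0.35 (95% interval -0.84 to 0.15), and CD knockout library 2 held the lowest value. Nsdhl (ENSMUSG00000031349) lies at chrX:72918557-72958514 on the plus strand.

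Ebp, the sterol isomerase that shifts a double bond in the ring, was at 24.6 and 24.6 TPM in VOFD knockouts, at 27.6, 20.0 and 22.1 TPM in CD knockouts, and 21.4 and 27.3 TPM in CD wild types. Its groups overlapped like those of Tm7sf2, its highest library was 1.38 times its lowest, and its interval for infertile against fertile ovaries was -0.43 to 0.27. The intervals of both genes leave room for moderate changes in either direction. Ebp (ENSMUSG00000031168) lies at chrX:8185329-8193512 on the minus strand.

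Sc5d encodes the sterol C5-desaturase of a late step. Sc5d was at 87.5 and 78.4 TPM in VOFD knockouts, at 35.8, 34.9 and 41.0 TPM in CD knockouts, and 55.6 and 72.9 TPM in CD wild types. The 3 groups did not overlap at all, with VOFD knockouts above CD wild types and CD knockouts below both. VOFD knockouts also lay wholly above CD wild types, with 2 libraries each, for 24.6% of all tested genes. Sc5d averaged 37.2 ± 3.29 TPM in infertile ovaries and 73.6 ± 13.4 TPM in fertile ovaries (a log2 difference of -0.95, SE 0.17, limma adjusted p = 0.0635), which missed the threshold. It passed after median-of-ratios scaling (adjusted p = 0.0114), after quantile normalisation (0.0172) and without CD knockout library 1 (0.0327), and its adjusted p over all 16 alternatives ran from 0.0114 to 0.184. Sc5d (ENSMUSG00000032018) lies at chr9:42251595-42264256 on the minus strand.

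Dhcr7, the reductase of the last step of 1 branch of the pathway, had a difference whose sign rested on a single library. Dhcr7 was at 25.9 and 21.3 TPM in VOFD knockouts, at 29.9, 10.9 and 16.9 TPM in CD knockouts, and 15.3 and 25.6 TPM in CD wild types. CD knockout library 1 was the highest of all 7 and CD knockout library 2 the lowest. The log2 fold change in infertile against fertile ovaries was -0.27 (95% interval -0.96 to 0.43), and it was 0.06 without CD knockout library 2. Dhcr7 (ENSMUSG00000058454) lies at chr7:143823145-143848410 on the plus strand.

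CD knockout library 1 also stood apart from the other 2 in genes outside the set. It had 603 TPM of Star and 2480 TPM of Cyp11a1, which import cholesterol into mitochondria and cleave its side chain, against 93.7 and 61.9 TPM of Star and 250 and 602 TPM of Cyp11a1 in CD knockout libraries 2 and 3. The theca cell gene Cyp17a1 was at 3.53 TPM in it, against 150 and 81.9 TPM. Other theca genes did not all go the same way. Aldh1a1 was higher in this library (2170 TPM, against 1130 and 937 TPM). Ptch1 lay between the others (18.2 TPM, against 17.8 and 37.4 TPM), and Enpep was lower (12.7 TPM, against 23.7 and 29 TPM). Msmo1, Cyp51 and Sc5d did not set this library apart from the other CD knockout libraries.

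Within the knockout, the diet groups had their largest fold changes among the 9 in Msmo1, Cyp51 and Sc5d. In VOFD knockouts against CD knockouts 8 of 9 genes were higher, with a median log2 fold change of 0.74, where the median over all genes was -0.10. By limma 0 of the 9 were called, as were 0.0387% of all genes in the higher direction, and 5 of 9 had an unadjusted p under 0.05 and a higher level, against 2.86% of all genes. Groups did not overlap for 6 of the 9 genes, all higher in VOFD knockouts, and for 8.68% of all genes. Msmo1 had a log2 fold change of 1.48 (SE 0.21, limma adjusted p = 0.09), Cyp51 of 1.40 (SE 0.24, 0.149) and Sc5d of 1.14 (SE 0.18, 0.128). Lss (0.91, 95% interval 0.19 to 1.63), Sqle (0.74, 0.01 to 1.48) and Nsdhl (0.49, -0.11 to 1.10) followed. Msmo1 and Sc5d passed after median-of-ratios scaling (adjusted p = 0.0486 and 0.0377) or quantile normalisation (0.046 and 0.0451), and Msmo1 passed without CD knockout library 1 (0.0269). Over all 17 alternatives the adjusted p ranged from 0.0269 to 0.762 for Msmo1 and from 0.0377 to 0.992 for Sc5d.

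In CD knockouts against CD wild types 8 of 9 genes were lower, with a median log2 fold change of -0.53, where the median over all genes was 0.19. None of the 9 was called by limma, as against 0.0517% of all genes in the lower direction, and 3 of 9 had an unadjusted p under 0.05 and a lower level, against 2.46% of all genes. Groups did not overlap for 4 of 9 genes, all lower in CD knockouts, and for 5.95% of all genes. Cyp51 had a log2 fold change of -1.28 (SE 0.24, limma adjusted p = 0.146), Msmo1 of -1.25 (SE 0.21, 0.119) and Sc5d of -0.76 (SE 0.18, 0.253). Msmo1 passed with median-of-ratios scaling (adjusted p = 0.0455) and without CD knockout library 1 (0.0394), and over all 17 alternatives its adjusted p ranged from 0.0394 to 0.59. This comparison and the diet comparison share the 3 CD knockout libraries, so the opposite signs of a gene in them are not independent.

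The VOFD knockouts and CD wild types lay close together. In VOFD knockouts against CD wild types, none of the 9 was called. All 9 had a positive log2 fold change, from 0.02 for Ebp to 0.37 for Sc5d, with a median of 0.22, while 65.3% of all genes were positive with a median of 0.08. By limma 0 of the 9 were called and 0 had an unadjusted p under 0.05, where 0.0129% of all genes were called higher and 1.39% had such a p in that direction. Groups did not overlap for Sc5d and Nsdhl, which were higher in VOFD knockouts, against 24.6% of all genes. The 95% interval was -0.30 to 0.74 for Msmo1 and -0.49 to 0.72 for Cyp51, so a difference of moderate size in either direction could not be detected with 2 libraries each. The signs of Sqle, Lss, Cyp51, Tm7sf2, Ebp and Dhcr7 turned when CD wild type library 1 was left out, with values from -0.21 to -0.11, and those of Tm7sf2 and Ebp also turned with either scaling. CD wild type library 1 was below library 2 for all 9 genes.

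**Figure D3:**
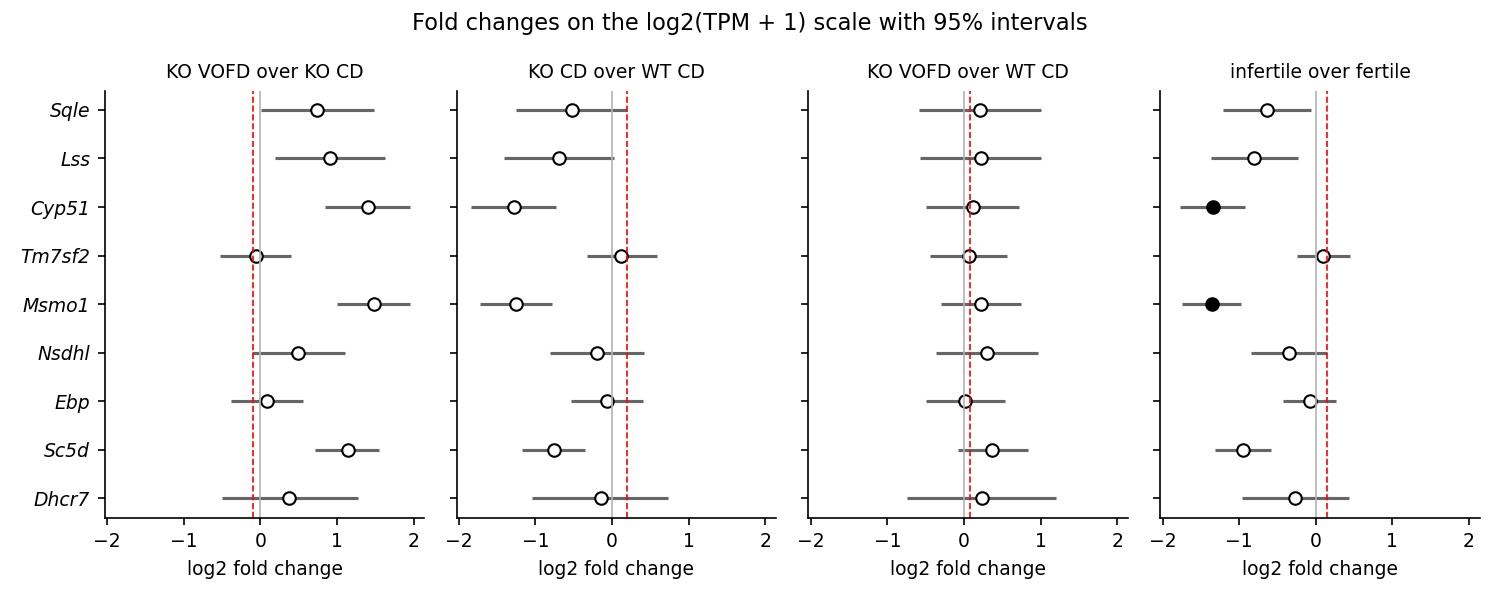
Log2 fold change of each gene (points) with its 95% interval (lines) in VOFD knockouts over CD knockouts, CD knockouts over CD wild types, VOFD knockouts over CD wild types, and infertile over fertile libraries. Filled points passed the limma threshold, which were Msmo1 and Cyp51 in the last panel, and the red dashed line is the median of all tested genes.

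The summed level of the 9 genes and its make-up differed between infertile and fertile libraries. The sum was 461 and 397 TPM in VOFD knockouts, 246, 182 and 244 TPM in CD knockouts, and 313 and 430 TPM in CD wild types, with no overlap between infertile and fertile libraries. Msmo1 took between 26.1% and 27.7% of the sum in the infertile libraries, against 37.9% to 40.3% in fertile ones. Tm7sf2 took between 15.0% and 16.1% in the infertile libraries, against 7.60% to 8.87% in fertile ones. For neither gene did the infertile and fertile ranges overlap. The ratio of Msmo1 to Tm7sf2 within a library, which no single scale factor per library can move, was 5.04 and 5.16 in VOFD knockouts, 1.78, 1.62 and 1.80 in CD knockouts, and 4.54 and 4.57 in CD wild types. The ratio of Ebp to Tm7sf2 lay between 0.590 and 0.745 in the infertile libraries, against 0.686 to 0.814 in fertile ones, which overlap. These ratios were chosen after their values were seen and are given as a description.

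**Figure D4:**
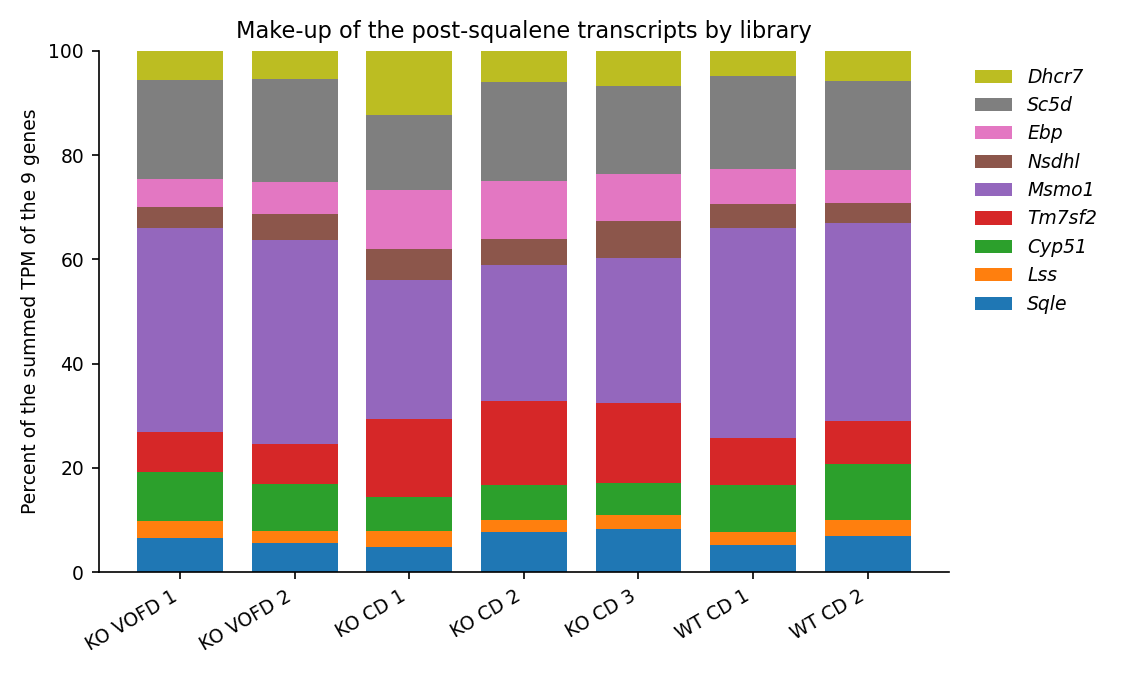
Share of each gene in the summed TPM of the 9, in percent, for every library. The Msmo1 band is narrower in the 3 CD knockout libraries (26.1% to 27.7%) than in the 4 others (37.9% to 40.3%), and the Tm7sf2 band is wider.

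Other genes of the pathway were listed by their role. Hsd17b7, the sterol 3-keto reductase that acts after the Nsdhl enzyme in the removal of the carbon 4 methyl groups, had the widest range of any listed synthesis gene. Hsd17b7 was at 72.6 and 17.0 TPM in VOFD knockouts, at 5.56, 6.14 and 8.00 TPM in CD knockouts, and 29.8 and 93.5 TPM in CD wild types. Every infertile library was below every fertile one, and the fertile libraries were far apart among themselves (log2 fold change in infertile against fertile ovaries -2.56, SE 0.50, limma adjusted p = 0.0838). Hsd17b7 also reduces oestrone in mouse luteal cells. It passed without VOFD knockout library 2 (adjusted p = 0.0202) or CD knockout library 1 (0.0497), in a range up to 0.232 over 16 alternatives.

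Lbr, a nuclear membrane protein with the same reductase activity as the Tm7sf2 product, lay between 13.8 and 25.1 TPM over all libraries, and its infertile and fertile libraries overlapped. Of the 4 other post-squalene genes tested, 0 were called by limma in infertile against fertile ovaries, and 1 (Hsd17b7) had an unadjusted p under 0.05.

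Of the 10 genes of the mevalonate arm up to squalene synthase, 9 were lower in infertile than in fertile ovaries with a median log2 fold change of -0.80, 1 was called lower by limma, against 0.187% of all genes, and 5 had groups that did not overlap, against 3.76%. Of the 10, 8 had an unadjusted p under 0.05 in either direction, against 15.4% of all genes. The called gene was Idi1, the isopentenyl diphosphate isomerase gene, at 16.3 ± 4.78 TPM in infertile ovaries and 54.3 ± 11 TPM in fertile ovaries (a log2 difference of -1.69, SE 0.22, limma adjusted p = 0.0218). Its adjusted p ranged from 0.00391 to 0.136 over 16 alternatives, and the call was lost in 7, of which 5 left out 1 library (VOFD knockout 1 or 2, CD knockout 2 or 3, CD wild type 2). Fdps and Fdft1, for farnesyl diphosphate synthase and squalene synthase, had log2 fold changes of -0.93 and -0.76 with limma adjusted p of 0.116 and 0.0905. Hmgcs1, for HMG-CoA synthase, was at 148 TPM in CD knockout library 1, against 59.0 and 57.5 TPM in CD knockout libraries 2 and 3. That library was within the fertile range for Hmgcs1, and for Dhcr7 it was above every other library.

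**Figure D5:**
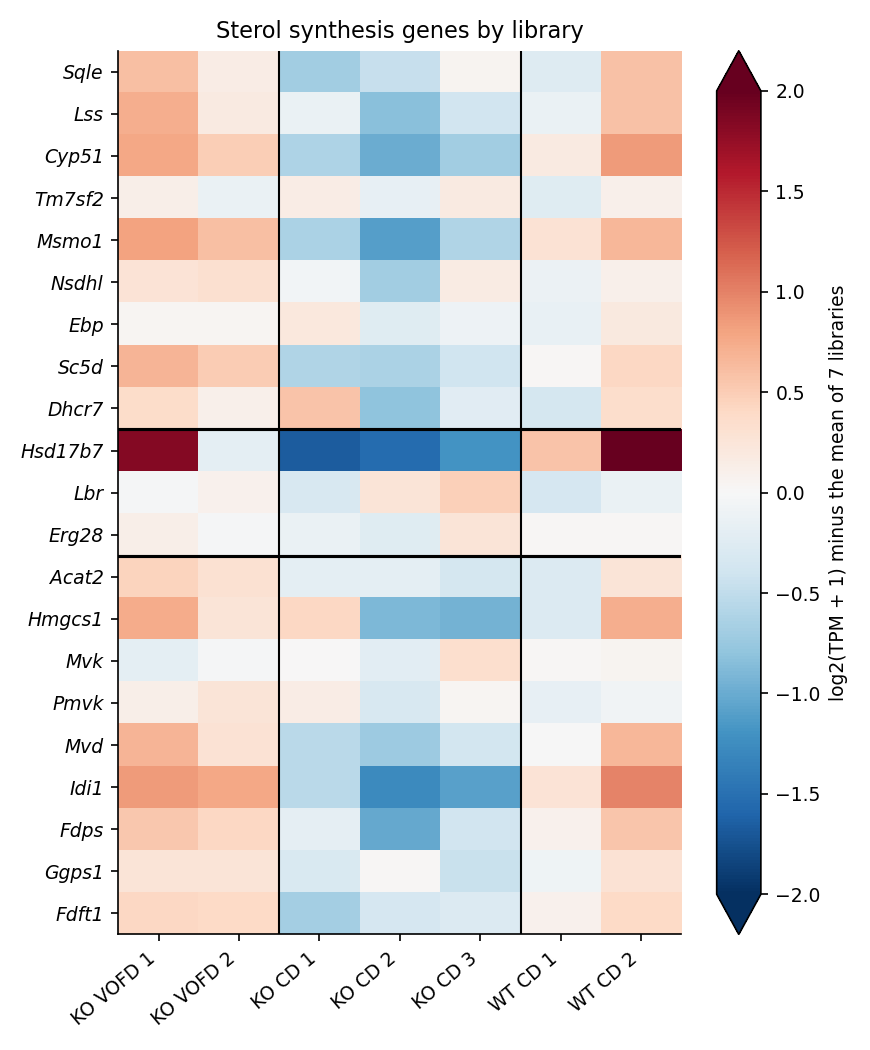
Log2(TPM + 1) of sterol synthesis genes, each minus its own mean over the 7 libraries, by library (columns) and gene (rows), with the 9 genes on top, 3 other post-squalene genes in the middle and 9 genes of the mevalonate arm below. Msmo1, Cyp51, Sc5d, Hsd17b7 and Idi1 are blue in all CD knockout columns, while Tm7sf2, Ebp, Mvk and Pmvk are pale throughout.

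Outside the 9, genes were ranked by how near their profile over the 7 libraries lay to the mean profile of the set, as the root mean square difference of centred log2 values among 10691 named genes of at least 5 TPM. Among the nearest were Qpct at 0.06, Adora1 at 0.10, Zfp882 at 0.11, Dnaja4 at 0.12 and Gxylt2 at 0.13. Zfp738 at 0.14 and Rragd, Pik3r3 and Calcrl at 0.15 each followed. Single genes of the set lay as far from the mean profile of the set as these or farther, from 0.15 for Lss to 0.37 for Msmo1 and Tm7sf2.

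Between infertile and fertile libraries, the summed adipose and erythroid markers did not overlap. The sums of luteal, macrophage, granulosa, theca and oocyte markers overlapped. Hsd3b1, at 3860 to 5330 TPM, was the largest part of the luteal sum in every library. Taken singly, 5 of 12 luteal markers had groups that did not overlap, all lower in infertile ovaries, against 3.76% of all genes. Of 12 luteal markers, 10 were lower in infertile than in fertile ovaries and 3 (Ptgfr, Akr1c18 and Sfrp4) were called lower by limma, against 0.187% of all genes, with a summed level between 4780 and 8750 TPM in infertile libraries and between 7360 and 9740 TPM in fertile ones. Sfrp4, a luteal gene, was at 41.1, 5.26 and 65.4 TPM in infertile libraries, and between 472 and 1070 TPM in fertile ones. Of 10 tested adipose markers 9 were higher in infertile ovaries and 0 were called, with sums of 1660 to 3660 TPM in infertile and 288 to 1500 TPM in fertile libraries. All 5 erythroid markers were higher and 1 (Hba-a1) was called higher, against 0.0581% of all genes, with sums of 1270 to 3050 TPM in infertile and 440 to 835 TPM in fertile libraries. Of 9 tested macrophage markers 9 were higher and 0 called, with sums of 543 to 799 TPM in infertile and 475 to 636 TPM in fertile libraries. Granulosa markers were higher for 7 of 10, theca markers for 4 of 6 and oocyte markers for 2 of 11, with 0 called in each list by limma. Of all tested genes 69.2% were higher in infertile ovaries, so the granulosa and theca counts lay near the share of all genes. An unadjusted p under 0.05, in either direction, was found for 6 luteal, 8 adipose, 5 erythroid and 5 macrophage markers. It was found for 3 granulosa, 0 theca and 0 oocyte markers, and for 15.4% of all genes. CD knockout library 1 held the lowest oocyte sum (251 TPM) and the lowest granulosa sum (1400 TPM) of all 7. Of 6 hepatocyte markers only Apoa1 passed the filter, at 40.7, 44.2 and 56.3 TPM in infertile libraries and 38.6 to 44.2 TPM in fertile ones, while Ttr and Fga were listed at 0 in all 7 and Alb did not exceed 0.815 TPM. The part of luteal, adipose and blood cells in the levels of the sterol genes was not tested.

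Reads of some of the genes could have been shared. In GENCODE M21 Cyp51 overlaps Akap9 by 166 exon bases on the opposite strand, Lss overlaps the antisense gene 4930483K19Rik by 381, and Tm7sf2 overlaps Vps51 by 532 on its own strand. Whether the counting used strand is not stated, so the levels of Cyp51 and Lss are uncertain to that extent. The overlap of Tm7sf2 lies on 1 strand, so its level is uncertain with or without strand. The longest transcript of each of the 9 matched no other gene's transcript over at least 300 bases at 90% identity in a single alignment. Other transcripts of the 9 genes were not searched, and shared bases split between exons, as in the overlaps above, could be missed.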

How the data were processed

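RNA of whole ovaries, each homogenised by itself per the labels' protocols, was sequenced in 7 libraries. The authors deposited TPM for 34866 versioned Ensembl IDs. Per the submitters' processing notes, reads were placed on GRCm38. Aligner, counting tool and annotation: not given in the sources used here. Depth is unknown, so no counting interval was computed. Symbols were matched for 34582 IDs, and gene positions came from GENCODE M21 (GRCm38).

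Genes with at least 1 TPM in at least 2 libraries (15487) were tested on log2(TPM + 1) with limma 3.58.1 in R 4.3.3, with an intensity trend, 2-sided, and BH over all tested genes. The 3 group means shared 1 fit of all 7 libraries, with 4 residual degrees of freedom. A second fit, with 5, set infertile against fertile libraries. The fits were tested on simulated data.

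The members, gene lists and tests were chosen with earlier results of these data known. All 9 members were named in every comparison. Of the other lists, the synthesis genes could be named, from each other list up to 4 genes of highest mean TPM, and the 10 genes of nearest profile. Ptgfr, Akr1c18, Ttr and Fga and the ratios to Tm7sf2 were chosen after values were seen. Some genes of the lists are counted but their values are not reported here. Promoter windows came from RefSeq (GRCm38.p6), and transcripts were compared with BLAST 2.17.0. Alternatives changed the pseudocount, filter, scaling, variance prior, libraries in the fit and the replicate block, and left out each library in turn.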

Additional observations from a re-analysis of the deposited data

How the results depend on the processing

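In infertile against fertile ovaries the direction of Msmo1, Cyp51, Sc5d, Lss, Sqle and Nsdhl was the same in all 16 alternatives. The number of members called was 2 as reported, 0 with no filter, 0 with the replicate block and between 0 and 3 with a library left out. Over all genes 38 were called, against 4 with no filter, 64 with median-of-ratios scaling, 59 with quantile normalisation, 15 with the replicate block and between 15 and 651 with a library left out, the most without CD knockout library 1. In VOFD knockouts against CD knockouts the members called were 2 with either scaling and between 0 and 1 with a library left out. Genes called there were 7, against 4 with a pseudocount of 0.1, 4 with only the groups compared, and 3 to 98 with a library left out. In CD knockouts against CD wild types 1 member was called with median-of-ratios scaling, and between 0 and 1 with a library left out. Genes called there were 17, against 3 with no filter, 27 with the replicate block, and 4 to 173 with a library left out, and their split of 9 higher and 8 lower became 7 and 12 with median-of-ratios scaling. In VOFD knockouts against CD wild types 2 genes were called, against 7 and 4 with pseudocounts of 0.1 and 0.5, 5 with no filter, 5 with no intensity trend, 4 with a robust prior, 21 with only the groups compared, 12 with the replicate block and 2 to 14 with a library left out. The cause of these shifts was not tested.

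Signs turned for uncalled values alone. Tm7sf2 took the values 0.05 and 0.07 in VOFD against CD knockouts, -0.09 and -0.08 in CD knockouts against CD wild types, -0.04 and -0.01 in VOFD knockouts against CD wild types, and -0.07 and -0.08 in infertile against fertile ovaries, with median-of-ratios and quantile scaling in that order. Ebp took -0.08 and -0.06 with the same scalings in VOFD knockouts against CD wild types. With a library left out, the log2 fold changes that turned ran as follows. In VOFD against CD knockouts Tm7sf2 ran from -0.18 to 0.06 and Ebp from -0.01 to 0.22. In CD knockouts against CD wild types Tm7sf2 ran from -0.05 to 0.30, Nsdhl from -0.38 to 0.05, Ebp from -0.24 to 0.10 and Dhcr7 from -0.51 to 0.20. In VOFD knockouts against CD wild types Sqle ran from -0.21 to 0.64, Lss from -0.14 to 0.58, Cyp51 from -0.21 to 0.45, Tm7sf2 from -0.11 to 0.24, Ebp from -0.15 to 0.19 and Dhcr7 from -0.12 to 0.59. In infertile against fertile ovaries Ebp ran from -0.21 to 0.02 and Dhcr7 from -0.63 to 0.06.

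Whether the replicate numbers pair the libraries could not be told from groups this small. With the replicate numbers as a block, the limma adjusted p in infertile against fertile ovaries was 0.0501 for Msmo1 and 0.0851 for Cyp51. Deviations of same-numbered libraries from their group means correlated at 0.04 and 0.05 between VOFD and CD knockouts. The values were -0.19 and -0.19 between VOFD knockouts and CD wild types, and 0.02 and -0.09 between CD knockouts and CD wild types. The -0.19 was fixed to repeat, since the 2 deviations in a group of 2 libraries mirror each other. With the pairing crossed in VOFD knockouts against CD wild types, an alternative chosen after seeing the data, 13 genes and 0 members were called. Leaving a library out of a group of 2 assumes that the lone library varies like the others. Depth is unknown in TPM, so counting error could not be separated from the spread between libraries.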

Other observations

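Genes that use sterol were followed beside the synthesis genes. Soat1, which esterifies cholesterol for storage, was at 211 and 205 TPM in VOFD knockouts, at 207, 232 and 302 TPM in CD knockouts, and 191 and 200 TPM in CD wild types. Its infertile and fertile libraries overlapped. Hsd3b1, which makes progesterone from pregnenolone, lay between 3860 and 5330 TPM in infertile ovaries and between 4200 and 5180 TPM in fertile ovaries. Of 11 tested genes of sterol use and esterification, 8 were higher in infertile ovaries and 0 were called by limma, with 1 at an unadjusted p under 0.05. Of all tested genes 69.2% were higher and 15.4% had such a p, so the list did not stand apart from all genes in either count.

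Of 13 tested genes of SREBP2 control and lipoprotein uptake, 8 were lower in infertile than in fertile ovaries, 0 were called by limma and 5 had an unadjusted p under 0.05. Scap, the sterol sensor that escorts SREBP2, was at 57.8 and 56.6 TPM in VOFD knockouts, at 85.7, 80.9 and 116 TPM in CD knockouts, and 46.8 and 62.5 TPM in CD wild types. Every infertile library was above every fertile one (a log2 difference of 0.73, SE 0.16, limma adjusted p = 0.111), while the synthesis genes Msmo1 and Cyp51 were below. Among LXR targets, 10 of 12 were higher in infertile ovaries and 0 were called by limma, with 4 at an unadjusted p under 0.05. Of all tested genes 69.2% were higher in infertile ovaries and 15.4% had such a p. Apoe, a sterol carrier gene, was at 1780 ± 520 TPM in infertile ovaries and 1080 ± 203 TPM in fertile ovaries (limma adjusted p = 0.206). Its infertile and fertile libraries overlapped, with CD knockout library 1 at 1260 TPM and VOFD knockout library 1 at 1350 TPM.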
